A study of Sus scrofa with 16 samples.

Results

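Molecular chaperones and genes of the unfolded protein response were examined in pig liver, 43 gene symbols in all. The list is one of gene names, and its rule uses no measured value. A probe counted for a member when the gene name or the description in the scanner files gave its symbol, when a RefSeq identifier in the files paired with it, or when the description gave its full gene name. By that rule 28 of the 43 symbols had a probe on the array. RefSeq lists HSPA1A and HSPA1B as synonyms of 1 pig gene, HSP70.2, so these symbols make 27 of the 5270 genes with a named probe, and 99 of the 43603 probes read them. For 4 further symbols (PDIA6, SEL1L, EDEM1 and ATF3) the only probes were described by resemblance to a gene, and they are given apart. No probe was named for the remaining 11, which are HSPA4, DNAJA1, STIP1, HSPA9, DNAJB9, PDIA3, P4HB, HERPUD1, ERN1, TRIB3 and PPP1R15A, and they are not analysed here.

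The livers came from 16 pigs of 20 kg body weight fed ad libitum, 8 of the low-RFI strain (RFIneg) and 8 of the high-RFI strain (RFIpl). RFI, residual feed intake, is the feed an animal eats beyond what its growth and maintenance predict, and a low value marks an efficient animal. Total RNA was labelled with Cy3 and each pig was read on its own 1-colour Agilent array. Sex, age and litter are not given in the sources used here. Every level below is a log2 signal from which the 75th percentile of the array was subtracted, every change is low-RFI minus high-RFI, and levels of different genes are not set against each other because probes differ in brightness.

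Chaperones bind unfolded proteins and help them fold. In the cytosol their genes are switched on by heat shock factors when misfolded protein accumulates, and mitochondria carry a folding chamber of their own. In the endoplasmic reticulum, where hepatocytes fold the plasma proteins they secrete, an excess of unfolded protein is sensed by ATF6, by PERK (the product of EIF2AK3) and by IRE1, which raise chaperones through ATF6, ATF4 and XBP1 and, under prolonged stress, the factor CHOP (the product of DDIT3).

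The tissue was checked first. ALB, SERPINA1, TTR, APOA1 and TF, which encode plasma proteins of hepatocytes, were well above background on all 16 arrays, and ALB was brighter than 99.99% of tested probes. Between 28576 and 34977 probes per array were well above background, and the highest number belonged to high-RFI pig 6. That array was the highest of the 16 for 22.4% of tested probes, against 11.1% for low-RFI pig 2, the next in order. Results that rest on low-RFI pig 2, which stood apart in the chaperones, are given with and without it.

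No chaperone or unfolded protein response gene differed between the lines at an adjusted p under 0.05 (limma, Benjamini-Hochberg over 30097 tested probes). All 27 genes were tested, each by its brightest probe, and all were well above background on every array. The background was 3 probes called, 0.00997% of those tested. None of the 27 had an unadjusted p under 0.05 in limma either, where 5.45% of tested probes did. In all 27 genes the values of the lines overlapped, and the lines failed to overlap in 0.0432% of tested probes. The mean was higher in low-RFI pigs for 21 of the 27 genes, beside 49.7% of tested probes, and the median change was 0.08, beside -0.00 over all tested probes. Without low-RFI pig 2 the mean was higher in low-RFI pigs for 12 of the 27 genes. The median change was then -0.05 in the cytosolic heat shock genes, -0.01 in the mitochondrial pair, -0.02 in the endoplasmic reticulum genes and 0.02 in the sensors and transcription factors. Over all tested probes the median change without that pig was 0.004. The low-RFI and high-RFI arrays were spread evenly over 4 slides. Slide 1 held low-RFI pig 2 and also high-RFI pig 6, the lowest of all pigs in 8 of the 27 genes, beside 13.25% of tested probes. Within slide 1 the medians were 0.65, 0.51, 0.73 and 0.18 in the same order of groups. On slide 2 they were -0.11, -0.15, -0.28 and 0.02, on slide 3 -0.04, -0.15, 0.11 and -0.10, and on slide 4 -0.15, 0.11, 0.04 and -0.08.

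**Figure D1:**
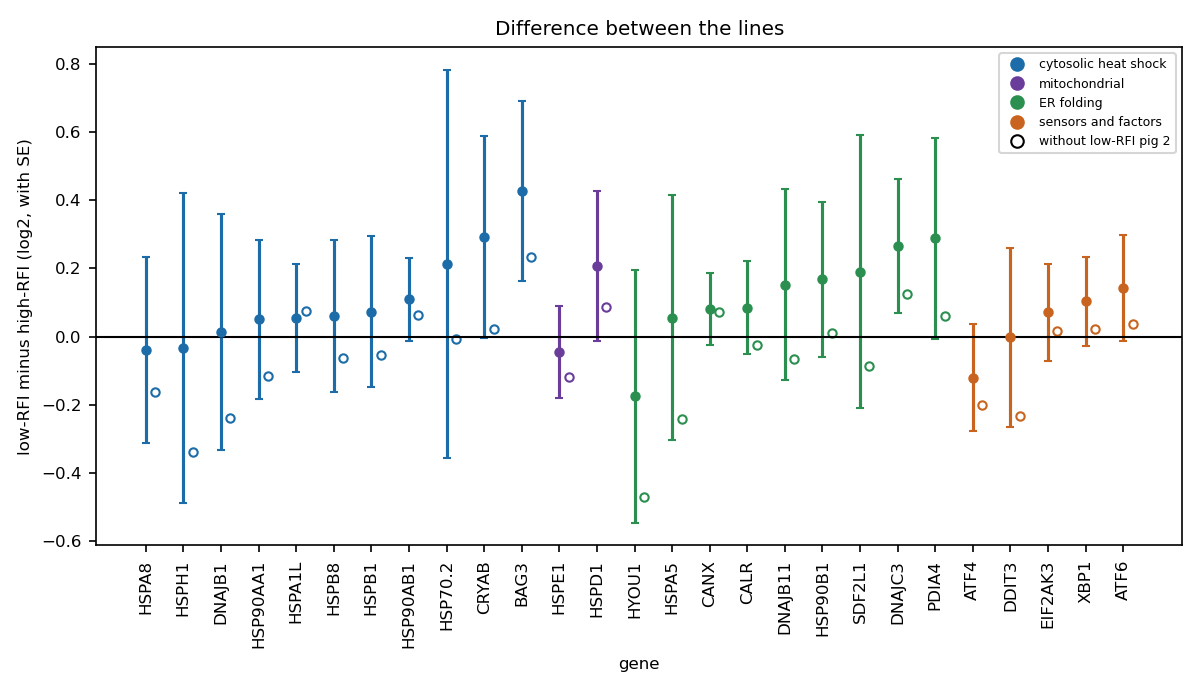
Change of each gene between the lines on the log2 scale (low-RFI minus high-RFI, filled points, bars are the SE of the limma fit, 8 pigs per line) and the change without low-RFI pig 2 (open points). The largest change is 0.43 for BAG3, and without that pig HSPA5 moves from 0.06 to -0.24 and SDF2L1 from 0.19 to -0.09.

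Several of these genes varied widely among pigs of the same line. HSP70.2, the inducible cytosolic HSP70 of the heat shock response, spanned a 12.3-fold range over the 16 livers and HSPH1 an 11.8-fold range. The top of the HSPH1 range was low-RFI pig 2, 0.95 above the next pig. Of the 27 genes, 8 had an SD between pigs of the same line above 0.628, the 90th percentile of all tested probes. They were HSP70.2, HSPH1, DNAJB1 and CRYAB of the cytosol and SDF2L1, HYOU1, HSPA5 and PDIA4 of the endoplasmic reticulum. Without low-RFI pig 2 the count fell to 3, HSP70.2, HSPH1 and SDF2L1. The median SD within a line was 0.57 for the cytosolic heat shock genes and 0.61 for the endoplasmic reticulum genes, beside 0.33 over all tested probes. It was 0.37 for the mitochondrial pair and 0.31 for the sensors and transcription factors. Without low-RFI pig 2 these medians were 0.42, 0.44, 0.33 and 0.27, beside 0.32 over all tested probes. The SDs also include differences between 2 runs of sample numbers described below, 2.14 (SE 0.25) in HSP70.2. With the run as a block and all pigs kept, the medians were 0.47, 0.50, 0.36 and 0.29 in the same order. In bulk liver, fewer cells of a type and less RNA per cell cannot be told apart.

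**Figure D2:**
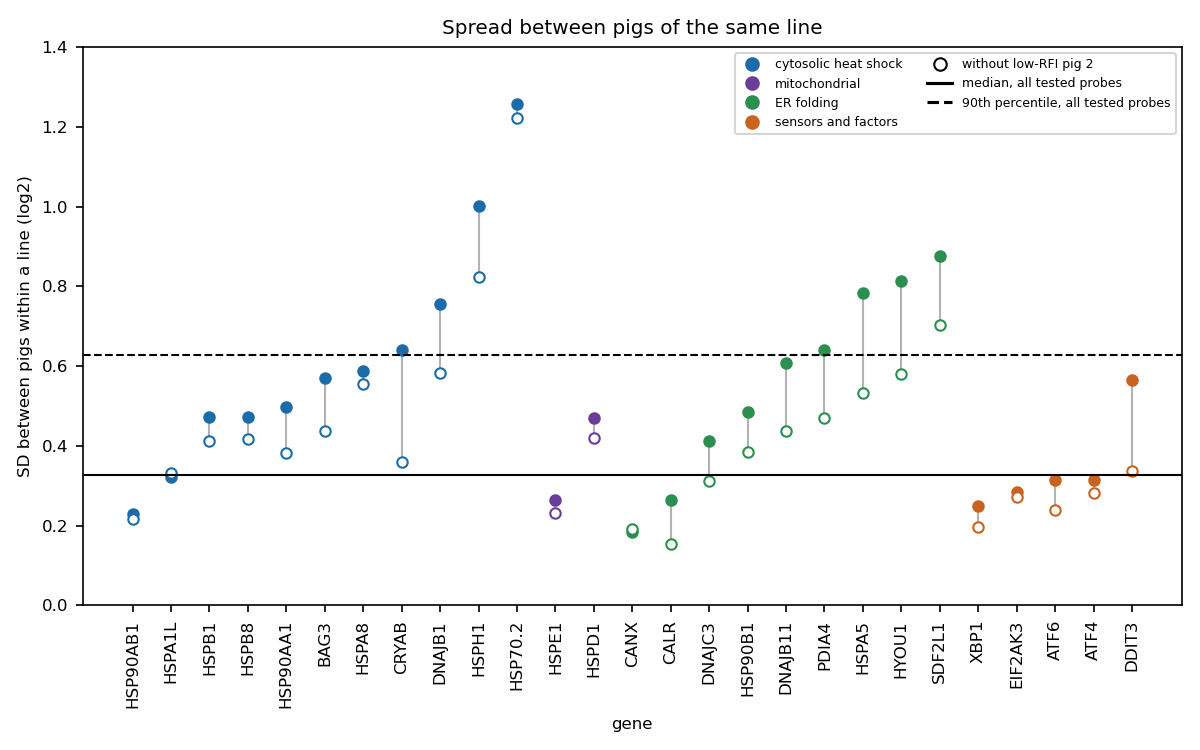
SD between pigs of the same line for each gene on the log2 scale, with all 16 pigs (filled) and without low-RFI pig 2 (open), beside the median (solid line, 0.33) and the 90th percentile (dashed line, 0.63) of all tested probes. HSP70.2 keeps an SD of 1.22 without that pig, while DDIT3 goes from 0.57 to 0.34 and CRYAB from 0.64 to 0.36. The SDs include differences between the runs of sample numbers.

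In the cytosol, 9 of the 11 genes had a higher mean in low-RFI pigs and none passed the test. HSP70.2 was read by 2 probes of the same gene, shown because they differ in brightness and in the sign of their change.
HSP70.2 brighter probe: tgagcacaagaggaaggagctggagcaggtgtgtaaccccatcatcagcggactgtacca
HSP70.2 dimmer probe: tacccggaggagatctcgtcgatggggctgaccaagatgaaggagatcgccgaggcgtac
Both are 60 bases long and share no run of 20 bases. By the brighter probe, low-RFI pigs ranged from 1.61 through a median of 3.09 to 4.76, and high-RFI pigs from 1.43 through 2.70 to 5.05. The lines overlapped over nearly their whole range, and high-RFI pig 3 was the highest and high-RFI pig 7 the lowest. The change was 0.21 (SE 0.57, limma adjusted p = 0.998) by this probe and -0.29 (SE 0.48) by the dimmer one, and across the 16 pigs the readings of the probes correlated with r = 0.80. The array may not separate HSP70.2 from near-identical copies of the gene.

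HSPH1, a large HSP70 relative that resets HSP70 after each folding cycle, ran from 1.85 through 2.36 to 5.03 in low-RFI pigs and from 1.47 through 2.83 to 4.08 in high-RFI pigs. The highest value was that of low-RFI pig 2, 0.95 above the next pig, and the other pigs of the lines were interleaved. Its change was -0.03 (SE 0.45, limma adjusted p = 0.998), and -0.34 (SE 0.39) without low-RFI pig 2. The second HSPH1 probe followed the first with r = 0.99. DNAJB1, the co-chaperone that loads clients onto HSP70, ranged from 3.44 to 6.17 in low-RFI pigs and from 3.77 to 5.28 in high-RFI pigs, with a change of 0.01 (SE 0.35).

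The constitutive HSPA8 and the HSP90 genes moved less from pig to pig than HSP70.2 and HSPH1. HSPA8, which folds new proteins in unstressed cells, averaged 6.56 ± 0.63 (SD, n = 8) in low-RFI pigs against 6.60 ± 0.54 (SD, n = 8) in high-RFI pigs, from 5.80 through 6.50 to 7.42 and from 5.60 through 6.68 to 7.27. HSP90AA1, the inducible HSP90, was at 5.61, 6.12 and 7.40 (lowest, median and highest) in low-RFI pigs and at 5.73, 6.11 and 6.77 in high-RFI pigs. Both genes had their highest value in low-RFI pig 2, and in both the lines overlapped. The change was -0.04 (SE 0.27) for HSPA8 and 0.05 (SE 0.23) for HSP90AA1. The 6 HSP90AA1 probes read changes from 0.05 to 0.25 and SDs within a line from 0.50 to 0.75. The brightest, used here, was the lowest in both, and the SDs of the others all lay above 0.628, the 90th percentile of tested probes. HSP90AB1, the constitutive HSP90, had an SD of 0.23, lower than that of most tested probes.

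BAG3, a co-chaperone that steers misfolded proteins to autophagy, had the largest change and the smallest p of all 27 genes. It averaged 4.52 ± 0.59 (SD, n = 8) in low-RFI pigs against 4.10 ± 0.55 (SD, n = 8) in high-RFI pigs, from 4.05 through 4.34 to 5.88 and from 3.23 through 4.06 to 5.14. Of the 8 low-RFI pigs, 7 lay above the high-RFI mean, and the lines overlapped. The change was 0.43 (SE 0.26, limma adjusted p = 0.973), and 0.23 (SE 0.21) without low-RFI pig 2. All 5 BAG3 probes read higher in low-RFI pigs, by 0.02 to 0.61. They are repeated readings of the same gene, and they did not all follow each other. The correlation between probes had a median of 0.72 and a lowest value of -0.12. The small heat shock proteins HSPB1, HSPB8 and CRYAB, which hold unfolded proteins until HSP70 takes them over, were at 0.07, 0.06 and 0.29 (low-RFI minus high-RFI), and at -0.05, -0.06 and 0.02 without low-RFI pig 2. HSPA1L, an HSP70 known mainly from testis, was at 0.06.

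In the mitochondria, HSPD1 and HSPE1 encode HSP60 and HSP10, the barrel and the lid of the folding chamber. HSPD1 ran from 5.59 through 6.22 to 7.14 in low-RFI pigs and from 5.11 through 6.20 to 6.42 in high-RFI pigs. Low-RFI pig 2 was the highest and high-RFI pig 6 the lowest, with the other pigs between them in both lines. The change was 0.21 (SE 0.22, limma adjusted p = 0.979). It was 0.09 without low-RFI pig 2 and 0.07 without high-RFI pig 6. HSPE1 ran from 6.47 through 6.74 to 7.30 and from 6.63 through 6.83 to 7.19, with a change of -0.05 (SE 0.14). The 4 HSPE1 probes split in sign, from -0.11 to 0.20.

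HSPD1 was read by 20 tested probes, and 18 of them share a run of at least 20 bases with another. Of these, 5 are shown because a short stretch common to them, in capitals, sits at a different place in each, which shows how the probes step along the transcript.
HSPD1 probe 1: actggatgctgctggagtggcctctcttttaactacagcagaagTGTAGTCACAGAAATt
HSPD1 probe 2: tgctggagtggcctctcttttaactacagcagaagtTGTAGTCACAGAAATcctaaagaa
HSPD1 probe 3: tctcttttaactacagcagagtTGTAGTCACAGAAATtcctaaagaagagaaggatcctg
HSPD1 probe 4: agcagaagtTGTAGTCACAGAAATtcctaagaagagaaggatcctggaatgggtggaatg
HSPD1 probe 5: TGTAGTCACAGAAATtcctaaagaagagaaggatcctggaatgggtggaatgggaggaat
The common stretch is 15 bases long, and the first and last of the 5 share no more than 16 bases. Where they overlap, some of the 5 also differ by single bases that one holds and another lacks. Whether this bears on their levels was not tested. Mean levels of the 5 were 4.61, 4.38, 2.85, 3.45 and 3.91, while their changes lay close together, at 0.21, 0.22, 0.21, 0.22 and 0.24. Over all 20 probes the change was higher in low-RFI pigs for every one, from 0.04 to 0.24. These probes share a transcript and the same 16 arrays, so they are repeated readings of 1 gene and not separate evidence of a difference.

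In the endoplasmic reticulum, 8 of the 9 genes had a higher mean in low-RFI pigs and none passed the test. HSPA5 encodes BiP, the HSP70 of this compartment and the usual readout of the unfolded protein response. Its only probe was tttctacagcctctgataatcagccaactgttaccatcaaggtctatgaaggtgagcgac, shown because no other probe of the gene checks its reading. HSPA5 was at 3.92, 6.58, 4.84, 4.86, 4.13, 3.85, 3.61 and 4.25 in low-RFI pigs 1 to 8. In high-RFI pigs 1 to 8 it was at 4.14, 4.80, 5.33, 4.93, 4.63, 4.23, 3.58 and 3.97. Low-RFI pig 2 stood 1.25 above the next pig, and the remaining 7 low-RFI pigs lay inside the range of the high-RFI pigs. The change was 0.06 (SE 0.36, limma adjusted p = 0.998), and -0.24 (SE 0.25) without low-RFI pig 2.

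HSP90B1 encodes GRP94, the HSP90 of the endoplasmic reticulum. It ran from 6.58 through 7.21 to 8.38 in low-RFI pigs and from 6.47 through 7.13 to 7.81 in high-RFI pigs, with the highest value in low-RFI pig 2. The lines overlapped and the change was 0.17 (SE 0.23, limma adjusted p = 0.985), or 0.01 without low-RFI pig 2. Of the 8 HSP90B1 probes, 7 read higher in low-RFI pigs, and the changes ran from -0.01 to 0.19. The lowest change came from a probe nearly as bright as the one used, with an SD of 0.31 against 0.49. SDF2L1, a subunit that keeps BiP bound to its clients, ran from 5.18 through 5.97 to 8.16 and from 4.66 through 6.03 to 7.20. It spanned an 11.4-fold range, with its highest value in low-RFI pig 2, 0.96 above the next pig. Its 5 probes correlated with each other at r of 0.99 or above. The change of SDF2L1 was 0.19 (SE 0.40), or -0.09 without low-RFI pig 2.

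HYOU1, the large HSP70 relative that exchanges nucleotide on BiP, was a dim probe at -4.58, -3.55 and -1.29 (lowest, median and highest) in low-RFI pigs and -3.93, -3.02 and -2.40 in high-RFI pigs. It was the only gene of this compartment with a lower mean in low-RFI pigs, at -0.17 (SE 0.37), and low-RFI pigs held both its highest and its lowest value. PDIA4, a disulfide isomerase, had the largest change of the group, 0.29 (SE 0.30, limma adjusted p = 0.979), from 3.49 through 4.43 to 6.10 in low-RFI and from 3.20 through 4.43 to 4.91 in high-RFI pigs. Its medians were alike and the top value was again that of low-RFI pig 2, without which the change was 0.06. DNAJC3, a BiP co-chaperone that also restrains PERK, had the smallest p of the group, with a change of 0.27 (SE 0.20, limma adjusted p = 0.979), from 3.26 through 3.86 to 4.88 and from 3.32 through 3.74 to 3.88. Without low-RFI pig 2 its change was 0.13. Its second probe read 0.28 with all pigs. DNAJB11, another BiP co-chaperone, was at 0.15, or -0.07 without low-RFI pig 2. The lectin chaperones CALR and CANX, which hold glycoproteins while they fold, were at 0.09 and 0.08 and had SDs of 0.27 and 0.18, low for this group.

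**Figure D3:**
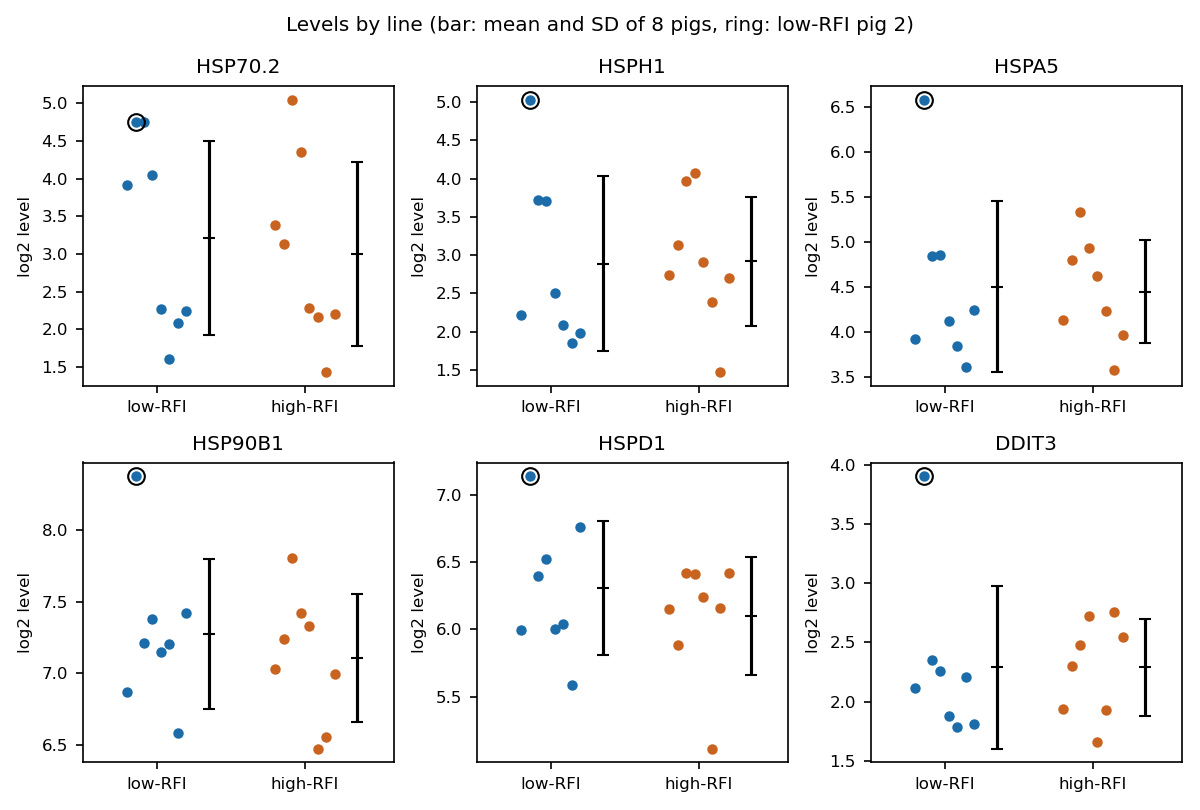
Log2 levels of 6 genes in each pig, low-RFI in blue and high-RFI in orange, with the mean and SD of 8 pigs beside the points and low-RFI pig 2 ringed. That pig is the highest of the 16 in HSPH1, HSPA5, HSP90B1, HSPD1 and DDIT3, while in HSP70.2 the highest is high-RFI pig 3.

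The sensors and transcription factors had the lowest median SD of the 4 groups, and 3 of 5 had a higher mean in low-RFI pigs. DDIT3 (CHOP) was at 1.78, 2.16 and 3.91 (lowest, median and highest) in low-RFI pigs and at 1.66, 2.39 and 2.76 in high-RFI pigs. Low-RFI pig 2 stood 1.15 above every other pig, and the rest of the lines overlapped. The means were 2.29 in both lines, with a change of -0.00 (SE 0.26, limma adjusted p = 0.999), or -0.23 (SE 0.17) without that pig. ATF4, the factor translated when PERK slows protein synthesis, ran from 4.92 through 5.16 to 5.82 and from 4.86 through 5.41 to 5.79, with a change of -0.12 (SE 0.16). XBP1, whose transcript IRE1 splices, ran from 5.92 through 6.32 to 6.89 and from 5.95 through 6.21 to 6.49, with a change of 0.10 (SE 0.13). In both the lines overlapped. The files name the XBP1 probes after an XBP1 pseudogene, though their accession now pairs with XBP1, and array levels do not show splicing. ATF6 had the largest difference of this group with all pigs, 0.14 (SE 0.16, limma adjusted p = 0.979), from -0.14 through 0.14 to 1.01 and from -0.16 through 0.13 to 0.33. Its highest value was again in low-RFI pig 2, and the lines overlapped. Without that pig ATF6 was at 0.04, smaller in size than DDIT3 at -0.23 and ATF4 at -0.20. EIF2AK3 (PERK) was at 0.07 (SE 0.14).

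Low-RFI pig 2 had the highest level of all 16 pigs in 23 of the 27 genes, whereas it was the highest for 11.1% and the lowest for 13.5% of all tested probes. It was the highest in 9 of 11 cytosolic genes, 2 of 2 mitochondrial genes, 8 of 9 endoplasmic reticulum genes and 4 of 5 sensors and transcription factors. Relative to the median of the 16 pigs, its mean level was 1.32 higher over the cytosolic genes, 1.46 higher over the endoplasmic reticulum genes, 0.82 higher over the sensors and transcription factors and 0.72 higher over the mitochondrial pair. The 4 exceptions were HSP70.2 and HSPA1L, highest in high-RFI pig 3, CANX, highest in low-RFI pig 8, and EIF2AK3, highest in high-RFI pig 6. The pigs next in order over the cytosolic genes were high-RFI pigs 3 and 4, at 0.72 and 0.66. Low-RFI pig 7 and high-RFI pig 7 were the lowest over the endoplasmic reticulum genes, at -0.58 and -0.54. The genes are not replicates of each other, since all come from the same 16 RNA samples.

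**Figure D4:**
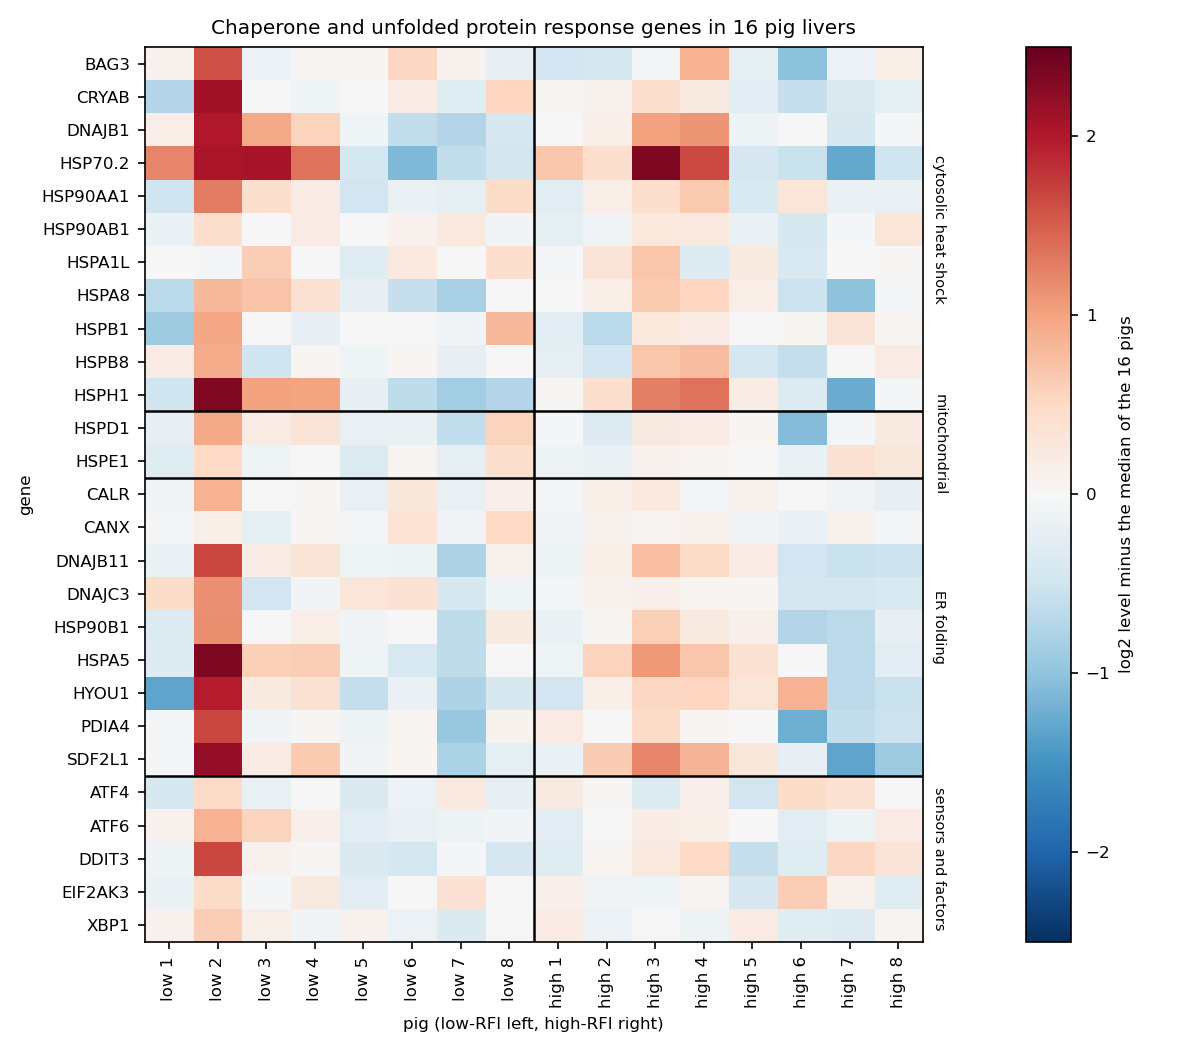
Log2 level of each gene in each pig minus the median of the 16 pigs, with low-RFI pigs on the left and high-RFI pigs on the right, and genes grouped by compartment. The column of low-RFI pig 2 is the highest in 23 of 27 genes, and HSP70.2 is high in several pigs of both lines.

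Values that move with this animal were read beside it. Its array had 29899 probes well above background, inside the range of the others, and the lowest noise of the 16, a median coefficient of variation of 7.83% over replicated probes. The summed level of 8 hepatocyte markers ranked 14 of 16 in that pig, that of 8 T and NK cell markers ranked 14, that of 6 Kupffer cell markers 7, that of 6 stellate cell markers 6, that of 7 endothelial markers 4 and that of 4 bile duct markers 7. Single markers could differ from their sum. In that pig FGG of the hepatocyte list was 1.10 above the median of the 16 pigs, where the median over the 8 markers was -0.22. The 3 tested granulocyte markers, S100A8, S100A9 and S100A12, were at their highest sum there, at 1.17 on the linear scale where the lowest pig of its line was at 0.18 and high-RFI pigs ran from 0.33 to 0.74. S100A9 by itself was highest in high-RFI pig 6. The single B cell probe (CD79A) ranked 6, and 9 markers of pancreas, fat and muscle ranked 12. Their part in the chaperone levels was not tested.

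Levels of 6 pairs of genes were compared across the 16 pigs, 1 of them between an endoplasmic reticulum and a cytosolic chaperone. HSPA5 of the endoplasmic reticulum and HSPH1 of the cytosol correlated with Pearson r = 0.94 and Spearman rho = 0.91 (two-sided permutation test with 100000 resamples, p = 1e-05 for r, the smallest they can give, adjusted p = 3e-05 over 6 pairs). Without low-RFI pig 2 and high-RFI pig 3, the pigs farthest from the median of HSPA5, r was 0.91. Among low-RFI pigs alone it was 0.95, and among high-RFI pigs 0.92 (exact permutation test, adjusted p = 0.00342 and 0.00394). Each line holds pigs of both runs of sample numbers described below, a split that these permutations did not take into account. Within the second run r was 0.77 and did not pass the test. HSPH1 and DNAJB1 correlated with r = 0.95 and rho = 0.88 (permutation adjusted p = 3e-05), and r was 0.90 without the 2 farthest pigs. HSPA5 and HSP90B1 correlated with r = 0.89 and rho = 0.83 (permutation adjusted p = 6e-05), and r was 0.70 without the 2 farthest pigs.

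The other 3 pairs did not hold without the 2 farthest pigs. HSPA5 and HSPD1 correlated with r = 0.61 and rho = 0.59 (permutation p = 0.0155, adjusted p = 0.0196) and HSPH1 and HSPD1 with r = 0.58 and rho = 0.50 (permutation p = 0.0197, adjusted p = 0.0197). Without the 2 farthest pigs r was 0.34 for both pairs and neither passed the test (permutation adjusted p = 0.289). HSPA5 and DDIT3 correlated with r = 0.66 but rho = 0.32 (permutation p = 0.0163 for r and 0.232 for rho, adjusted p = 0.0196 for r), and r was 0.06 without low-RFI pig 2 and high-RFI pig 3. In low-RFI pigs alone, with pig 2 among them, r was 0.91 (exact permutation adjusted p = 0.022), and in high-RFI pigs alone it was -0.05 (exact permutation adjusted p = 0.908). Leaving out low-RFI pig 2 alone gave r = 0.17, and leaving out high-RFI pig 3 alone gave 0.66. The relation of HSPA5 and DDIT3 thus rests on low-RFI pig 2.

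**Figure D5:**
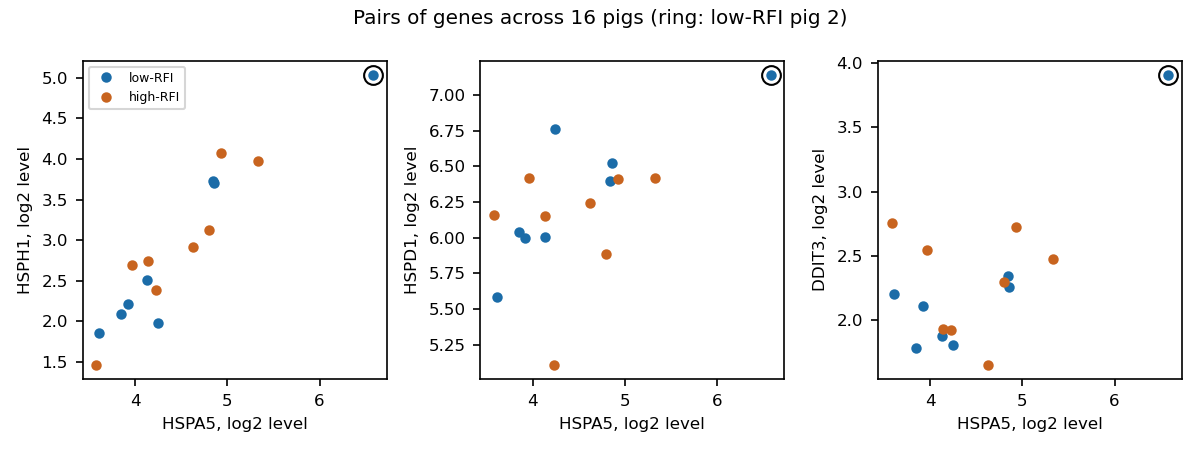
HSPA5 level on the horizontal axis against HSPH1, HSPD1 and DDIT3, all as log2 levels, 1 point per pig, with low-RFI pig 2 ringed. HSPH1 follows HSPA5 across both lines (r = 0.94). Against DDIT3, r is 0.66 with all pigs and 0.17 without the ringed pig.

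HSP70.2 also differed between runs of sample numbers. The numbers in the deposited data fall into 2 separate runs, each with 4 pigs of either line and spread over all slides, and what the runs stand for is not given. This split was examined after the data were seen. With line in the model, HSP70.2 was higher in the first run by 2.14 (SE 0.25, limma adjusted p = 0.00533), at 3.13 to 5.05 against 1.43 to 2.28. DNAJB1 was higher by 1.05 (SE 0.24, adjusted p = 0.0453) and HSPH1 by 1.34 (SE 0.33, adjusted p = 0.0491) in the same limma fit, and these 3 of 27 genes passed, beside 1.93% of tested probes. The call of HSP70.2 held with any 1 pig left out (limma adjusted p from 0.00152 to 0.0149). Those of DNAJB1 and HSPH1 did not, and were lost in 11 and 12 of the 16 fits that left out 1 pig. Without low-RFI pig 2 HSP70.2 alone of the 27 passed, beside 0.352% of tested probes, and DNAJB1 was at 0.86 (limma adjusted p = 0.0544) and HSPH1 at 1.11 (limma adjusted p = 0.0753). The dimmer HSP70.2 probe was higher by 1.38 (adjusted p = 0.0552, limma) and the second DNAJB1 probe by 0.78 (adjusted p = 0.0704, limma), and neither passed. HSPA5 was higher by 0.89 (adjusted p = 0.091) and did not pass. Within the first run HSPA5 and HSPH1 correlated with r = 0.94 (exact permutation adjusted p = 0.000893) and within the second with r = 0.77 (exact permutation adjusted p = 0.102). No pair of the 6 passed the test within the second run.

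No tested gene related to the 43 symbols passed the test either. Of 46 further cytosolic heat shock and co-chaperone symbols 14 were tested, and of 51 further endoplasmic reticulum symbols 14. Of 27 further signalling symbols 9 were tested, and of 12 mitochondrial symbols 1 (CLPX). The smallest p values with a higher mean in low-RFI pigs were those of FKBP5, an HSP90 co-chaperone of steroid receptors (0.59, SE 0.21, limma adjusted p = 0.708), and ERP29, an endoplasmic reticulum folding factor (0.41, SE 0.17, limma adjusted p = 0.844). Those with a lower mean were HSF2, a heat shock factor (-0.38, SE 0.15, limma adjusted p = 0.76), and VLDLR, a lipoprotein receptor raised by PERK signalling (-0.28, SE 0.18, limma adjusted p = 0.977). Low-RFI pig 2 was the highest pig in 6 of the 14 cytosolic genes, 8 of the 14 endoplasmic reticulum genes and 3 of the 9 signalling genes. Of 7 tested immediate early genes, which respond within minutes to many stimuli, it was the highest in SOCS3 alone. Relative to the median of the 16 pigs it stood at 2.13 in IER3, 2.03 in SOCS3 and 1.17 in JUN. It stood at 0.65 in KLF6, 0.59 in MYC, 0.26 in FOS and -1.61 in GADD45A, and its summed level of the 7 ranked 3 of 16. MYC (0.42, SE 0.43) and SOCS3 (0.19, SE 0.40) had a higher mean in low-RFI pigs and KLF6 (-0.26, SE 0.25) and GADD45A (-0.08, SE 0.37) a lower one.

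Probes named by resemblance alone covered PDIA6, EDEM1 and SEL1L, while that for ATF3 was too dim to test. PDIA6, a disulfide isomerase, ran from 3.84 through 4.32 to 5.41 in low-RFI pigs and from 3.47 through 4.24 to 4.87 in high-RFI pigs. EDEM1, which passes misfolded glycoproteins to degradation, ran from 1.21 through 1.49 to 2.65 and from 1.11 through 1.46 to 1.90. Both were highest in low-RFI pig 2 and overlapped between the lines, with changes of 0.18 (SE 0.24) and 0.11 (SE 0.18). Of the SEL1L probes, for the scaffold of the degradation ligase, one was at 0.16 (SE 0.15) and the other at 0.39 (SE 0.15, limma adjusted p = 0.76), with low-RFI pigs from -3.91 to -2.95 and high-RFI pigs from -4.33 to -3.40.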

How the data were processed

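Feature Extraction 10.7.3.1 (Agilent) turned the scans into spot values, per the file headers. Its processed signal is a linear intensity with background and spatial trend removed, per the file headers, and the mean signal and median background are intensities too. The authors' deposited series table holds log2 values, which equalled the log2 processed signal minus an array median over 27938 listed spots (largest difference 4.48e-08). How the authors picked those spots is not stated. R 2.10.0 appears in the submitters' processing notes.

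Log2 processed signals served as levels after subtracting each array's 75th percentile. Outlier spots were left out and spots of a probe averaged. Of 43603 probes, 30097 were tested, namely probes that 8 or more of the 16 arrays marked well above background, and 13506 were left out as dim. Low-RFI minus high-RFI was fitted over all tested probes with limma 3.58.1 (R 4.3.3). Adjustment was by Benjamini-Hochberg, at a threshold of 0.05. The script was tested on simulated data. The brightest tested probe stood for a gene. Named in full were 10 chosen genes (HSPA5, HSP90B1, HSPH1, HSPD1, HSP70.2, HSP90AA1, HSPA8, DDIT3, XBP1 and ATF4), any gene called and, in each group, the genes with the smallest p, the largest change and the 2 largest SDs. Other genes are given by value or range. Marker sums are linear levels added over a list. Correlations used two-sided permutation tests, with all 40320 pairings of 8 pigs enumerated. Members, lists and tests were chosen with earlier results of these data known. Precision is limited by the 8 arrays per line.

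Of the 27 genes, 16 were named by the gene name field alone and 6 by a full gene name alone (HSPA8, CANX, CRYAB, PDIA4, HYOU1 and EIF2AK3). Without a genome, probes could not be placed on chromosomes. Alternatives were other background corrections, scalings, filters, variance models, blocks, namings and leaving out each pig.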

Additional observations from a re-analysis of the deposited data

Results flagged for a closer look

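Within the 8 pigs of a line, 1 pig lay far from the others in 9 of 54 gene and line combinations, meaning its gap to the nearest pig took up a share of the whole range above Dixon's 95% critical value. Chance alone gives about 1 in 20 in independent groups, and these genes were read on the same RNA samples and are not independent. Over all tested probes the share was 7.84%. Low-RFI pig 2 was the pig in 8 of the 9, all as the highest of its line, as it was for 1.11% of all tested probes in that line. In the endoplasmic reticulum it stood at 6.58 in HSPA5 (next pig of the line 4.86), 8.38 in HSP90B1 (next 7.42), 6.10 in PDIA4 (next 4.52), 5.20 in DNAJB11 (next 3.84) and 4.19 in CALR (next 3.61). In the cytosol it stood at 5.88 in BAG3 (next 4.79) and 6.20 in CRYAB (next 4.64). In DDIT3 it stood at 3.91 (next 2.35), the widest gap, at 0.734 of the range. The remaining case was a low value, 5.11 for HSPD1 in high-RFI pig 6, where the next lowest pig was at 5.89.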

How the results depend on the processing

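No gene of the 27 was called under any of the 35 other settings run. The 3 probes called became 1 when all 16 arrays had to be well above background, 5 with array noise as a covariate, 7 with array weights, and 2 to 5 when 1 pig was left out. The lines share replicate numbers, and no label says that a number marks a shared litter or day. Deviations of same-numbered pigs correlated at 0.05 to 0.40, over 0.1 in 6 of 8 pairs, and 5 of 8 low-RFI pigs matched best with their own number. Same-numbered pigs also fell in the same run of sample numbers, and every best match was with a pig of that run. Whether these matches reflect pairing or the shared run was not tested, and the design gives no pairing. With the replicate number as a block, 4 probes and 0 genes of the 27 were called, and the median SD of the endoplasmic reticulum genes was 0.48.

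Signs of changes that did not pass the test turned as follows, and the cause was not tested. HSPA5 was -0.0157 with normexp, -0.059 with the noise covariate and -0.13 with array weights, and HSP90AA1 was -0.059, -0.022 and -0.0053. HYOU1 was 0.13 with normexp. HSPH1 was 0.00201 and DDIT3 0.034 with median scaling, and 0.12 and 0.084 with array position as a block. HSP70.2 was -0.11 and SDF2L1 -0.030 with array weights. With the mean over a gene's probes HSPH1 was 0.020, HSP70.2 -0.038 and HSPE1 0.014. Leaving out 1 pig gave -0.24 to 0.18 for HSPA5, -0.34 to 0.13 for HSPH1, -0.010 to 0.51 for HSP70.2, -0.12 to 0.14 for HSP90AA1, -0.18 to 0.070 for HSPA8, -0.23 to 0.070 for DDIT3, -0.12 to 0.0028 for HSPE1, -0.087 to 0.36 for SDF2L1 and -0.47 to 0.00030 for HYOU1, the lowest being without low-RFI pig 2 in all but HSPA8 and HSP70.2 (high-RFI pig 7). With pigs kept, the group medians of change ranged over the settings from -0.0053 to 0.12 (cytosol), -0.015 to 0.12 (mitochondria), 0.027 to 0.19 (endoplasmic reticulum) and -0.061 to 0.11 (sensors and factors). Normexp moved the median change of all probes by 0.09.

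The correlations of HSPA5 with HSP90B1 and HSPH1 and of HSPH1 with DNAJB1 passed under every other scaling and with any 1 pig left out (lowest r 0.78, 0.92 and 0.92). Within the second run of sample numbers, an added check on 8 pigs, r was 0.58, 0.77 and 0.71, none passing. There it was 0.16 for HSPA5 and HSPD1, 0.040 for HSPH1 and HSPD1 and -0.71 for HSPA5 and DDIT3, while within the first run these 3 pairs passed at 0.87, 0.89 and 0.93. Within low-RFI pigs they passed at 0.86, 0.73 and 0.91. Within high-RFI pigs r was 0.22, 0.39 and -0.048 for these 3 pairs, and without the 2 farthest pigs 0.34, 0.34 and 0.063. Leaving out 1 pig gave 0.38 to 0.72, 0.38 to 0.72 and 0.17 to 0.79, the lowest without low-RFI pig 2.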
